A study of Mus musculus with 12 samples.

Results

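The genes described here are the transcription factors Tfe3, Tfeb and Mitf, the folliculin complex genes Flcn, Fnip1 and Fnip2, the Rag GTPase genes Rraga, Rragc and Rragd, and Gpnmb. They were chosen by name and each matched 1 of the 54446 gene identifiers, which gave 10 members. Their RNA was measured in 12 mouse embryonic stem (ES) cell libraries, as 2 replicates in each of 6 groups. KH cells are wild type and were taken untreated (0 h) or after 72 or 144 h in INK128, an inhibitor of the kinase mTOR that brings ES cells into a paused state. DNMT3ABKO cells, in which both de novo DNA methyltransferase genes, Dnmt3a and Dnmt3b, are knocked out, were taken at the same times. Each genotype is a single line, the samples include no untreated culture of 72 or 144 h, and per the study's methods both lines grew on mitotically inactive feeder fibroblasts and were sorted before RNA extraction. The labels place E14 before both line names, whereas those methods call the wild-type line KH2. The labels do not say whether replicates were separate cultures, so the p-values measure only the spread between these libraries.

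At the lysosome, active mTORC1 phosphorylates TFE3, TFEB and MITF, basic helix-loop-helix leucine zipper factors of 1 family, and 14-3-3 proteins then hold them in the cytoplasm. This phosphorylation depends on RagC or RagD in the GDP-bound form, which folliculin and its partners FNIP1 and FNIP2 produce by acting on these GTPases. When mTORC1 is inhibited the factors enter the nucleus and activate lysosomal and autophagy genes through E-box sequences, and in ES cells folliculin and TFE3 are known for their role in the exit from pluripotency. RNA levels do not show where a protein lies in the cell or whether it is phosphorylated.

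The factors bind the E-box CACGTG, most often with a T before it, so the promoters of the members were searched for it in RefSeq sequence (GRCm38.p6, 250 bases before to 50 after each start, both strands). All 10 members had an entry, with 15 starts in all. CACGTG was found in 2 of the 15, the single starts of Fnip1 and Rragc, and both matches were also TCACGTG, which contains it. Over all 32851 promoters of 300 bases, 7.15% held CACGTG and 3.77% held TCACGTG. The variant TCATGTG was in none of the 15 entries and in 3.77% of all promoters. The sequences of these promoters are shown because they are the only member promoters with the motif. Capitals mark TCACGTG, read on the opposite strand, which begins 75 bases before the start of Fnip1 (chr11:54437929-54438228, plus strand) and 112 bases before that of Rragc (chr4:123917183-123917482, plus strand).
Fnip1: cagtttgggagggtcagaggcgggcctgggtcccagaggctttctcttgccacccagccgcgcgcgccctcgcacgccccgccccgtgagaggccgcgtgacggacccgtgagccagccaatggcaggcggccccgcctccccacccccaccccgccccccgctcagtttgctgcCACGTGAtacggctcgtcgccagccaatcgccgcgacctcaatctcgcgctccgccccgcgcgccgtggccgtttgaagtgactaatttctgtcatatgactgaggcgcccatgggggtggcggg
Rragc: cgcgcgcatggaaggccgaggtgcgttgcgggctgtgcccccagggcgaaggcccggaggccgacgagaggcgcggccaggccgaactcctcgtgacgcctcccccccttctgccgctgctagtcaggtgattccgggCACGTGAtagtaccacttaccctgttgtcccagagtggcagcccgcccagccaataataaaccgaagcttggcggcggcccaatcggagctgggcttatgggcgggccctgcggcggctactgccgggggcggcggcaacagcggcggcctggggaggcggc
A match describes these letters and is not evidence of binding.

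All levels are TPM, reads per transcript length scaled to the same sum of 1000000 in each library, so they are shares of each library's RNA. In such bulk samples, fewer cells of a type and less RNA per cell cannot be told apart. The study reports, from values normalized to added spike-in RNA, a global fall of transcription under mTOR inhibition in wild-type and Dnmt3a/b knockout cells. A rise named here is a larger share and need not be a larger amount per cell. In every group all 10 ES cell markers, among them Pou5f1, Nanog and Esrrb, reached at least 1 TPM. Their group mean sums at 0, 72 and 144 h were 4493, 6664 and 6849 TPM (KH) and 4418, 6498 and 6911 TPM (DNMT3ABKO). Of the 10, 9 were called higher at 72 h and 9 at 144 h in KH cells (28.3% and 27.4% of all genes). In DNMT3ABKO cells 9 and 8 were (34.3% and 31.4%), and 1 was called lower at each time (21.6% and 26.2%). These were Nanog at 72 h, from 227 and 301 TPM to 191 and 180 TPM, and Utf1 at 144 h, from 275 and 285 TPM to 230 and 224 TPM. The targeted genes were lower in DNMT3ABKO cells at 0 h, with means of 56.2 TPM (KH) and 9.45 TPM (DNMT3ABKO) for Dnmt3a and of 256.5 and 26.9 TPM for Dnmt3b. Of 20 fibroblast markers tested, at least 19 were called lower at each treated time in each line (19.5% to 26.2% of all genes). The sum of all 21 had means of 3368, 1497 and 691 TPM (KH) and 3612, 1220 and 521 TPM (DNMT3ABKO) at 0, 72 and 144 h. DNMT3ABKO 0 h replicate 1 stood apart, with 61.2% of its TPM in protein-coding genes against 65.2% to 70.1% in the other 11 libraries, and it was below replicate 2 for every member but Flcn. KH 0 h replicate 1 was the lowest of those 11, at 65.2%, and it was below KH 0 h replicate 2 for every member. The sizes of rises against 0 h therefore depend on replicate 1 in both lines, except for Flcn in DNMT3ABKO cells.

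Changes were tested with limma on log2(TPM + 1) over 15727 genes, and a change is named a call where the p-value, adjusted by the Benjamini-Hochberg method, was below 0.05. Fold changes are on that log2 scale, with standard errors (SE) from the same fit. In KH cells 3 members were called higher and 1 lower at 72 h, where 28.3% of all tested genes were called higher and 19.5% lower (47.8% in all). At 144 h the counts were 3 higher and 2 lower (27.4% and 23.9% of all genes, 51.3% in all). In DNMT3ABKO cells 4 were higher and 3 lower at 72 h (34.3% and 21.6%, 56.0% in all), and 5 were higher and 3 lower at 144 h (31.4% and 26.2%, 57.6% in all). From 72 to 144 h, 1 rose and 2 fell in KH cells (7.24% and 15.6%, 22.9% in all), and 4 rose and 1 fell in DNMT3ABKO cells (8.81% and 18.5%, 27.3% in all). With this many genes called, the counts over 10 genes are no result about the members, and the account rests on the single genes. With median-ratio scaling the KH counts became 2 higher and 2 lower at 72 h, and 4 higher and 2 lower from 72 to 144 h. With the libraries scaled to their protein-coding genes they became 5 higher and 2 lower at 144 h, and 4 higher and 2 lower from 72 to 144 h. The median over all genes was 0.12 in DNMT3ABKO cells at 72 h and 0.01 with median-ratio scaling, so values in that comparison are relative to a shift of this size.

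**Figure D1:**
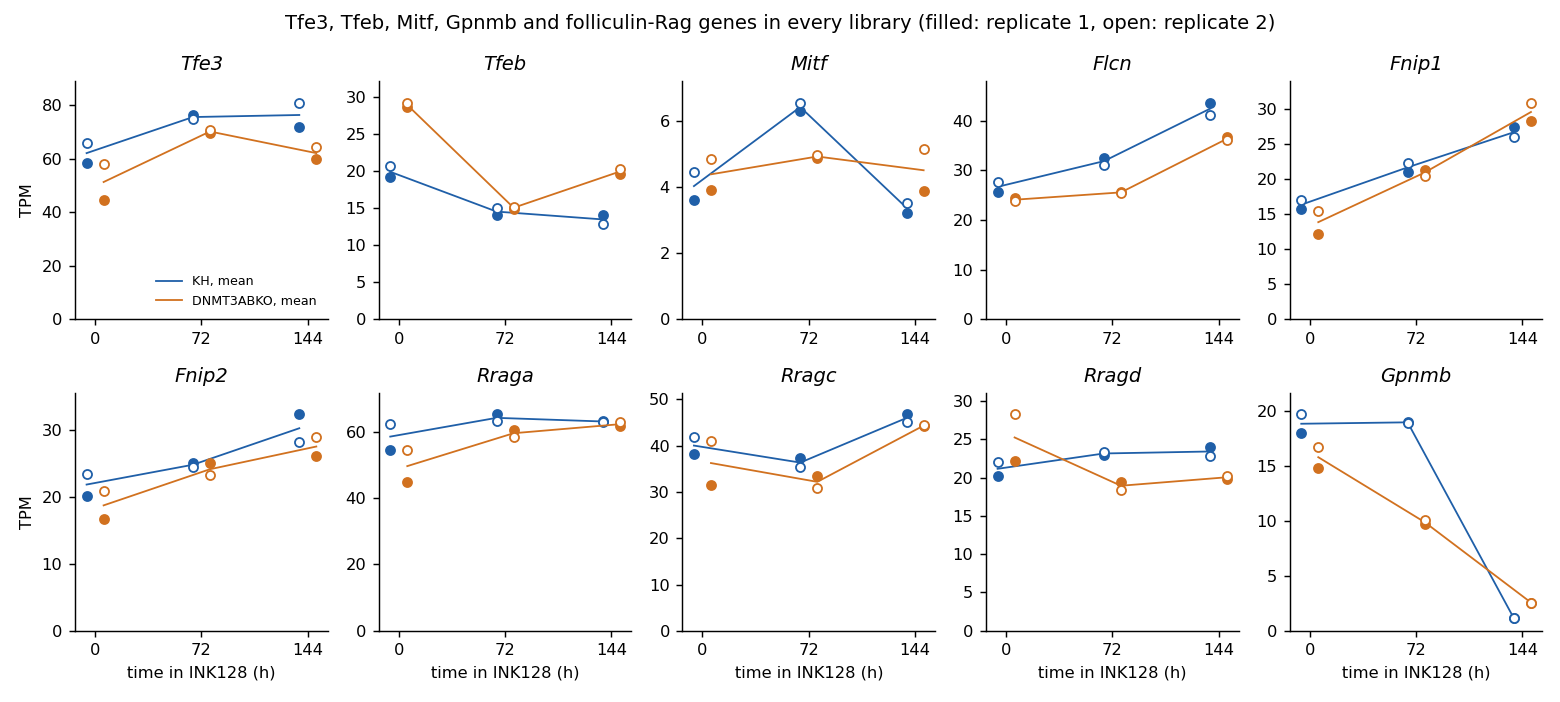
TPM (y axis) of the 10 members by time in INK128 (x axis, hours) in every library, with KH in blue, DNMT3ABKO in orange, filled points for replicate 1, open points for replicate 2 and lines through group means. Tfeb fell in both lines, Flcn and Fnip1 ended above their 0 h levels in both, and Gpnmb at 144 h was at 1.13 TPM (KH) and 2.58 TPM (DNMT3ABKO).

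Tfe3 was the most abundant of the family in every group, and it rose in DNMT3ABKO cells at 72 h, where Tfeb fell. Tfe3 (ENSMUSG00000000134.17, mm10 chromosome X, 7762560 to 7775202), the family member best known from ES cells, stood at 58.4 and 65.7 TPM in KH cells at 0 h, 76.2 and 74.9 TPM at 72 h, and 71.7 and 80.9 TPM at 144 h. The DNMT3ABKO libraries had 44.6 and 57.9, 69.7 and 70.5, and 59.9 and 64.2 TPM at these times. In each line, both libraries at 72 h and at 144 h lay above both at 0 h. In DNMT3ABKO cells at 72 h Tfe3 rose by 0.46 ± 0.12 (limma, adjusted p = 0.00711), and by 0.27 without the 0 h replicate 1 (adjusted p = 0.0302). The call was lost when only those groups were fitted (adjusted p = 0.0547). The differences from 0 h in the other 3 comparisons were 0.28, 0.29 and 0.28, with adjusted p of 0.0675 for KH at 72 h, 0.0552 for KH at 144 h and 0.0581 for DNMT3ABKO at 144 h, and none was called. All 3 were called when the libraries were scaled to protein-coding genes (adjusted p = 0.0136, 0.0124 and 0.0401), and also with the replicate number as a block (adjusted p = 0.04655, 0.03705 and 0.03865). The last was 0.10 without DNMT3ABKO 0 h replicate 1 (adjusted p = 0.392) and 0.47 without replicate 2 (adjusted p = 0.00147).

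Tfeb fell under INK128 in both lines, and it was higher in DNMT3ABKO than in KH cells before treatment and at 144 h. Tfeb (ENSMUSG00000023990.18, chromosome 17, 47737030 to 47792419), best known as a regulator of lysosome formation, stood at 19.1 and 20.6 TPM in KH cells at 0 h, 14.1 and 15.0 TPM at 72 h, and 14.1 and 12.8 TPM at 144 h. The DNMT3ABKO libraries had 28.6 and 29.2 TPM at 0 h, 14.9 and 15.2 TPM at 72 h, and 19.6 and 20.3 TPM at 144 h. No treated library of either line reached the 0 h libraries of its own line. In KH cells Tfeb fell by 0.43 ± 0.08 at 72 h (limma, adjusted p = 0.00134) and by 0.53 ± 0.08 at 144 h (adjusted p = 2.76e-04). In DNMT3ABKO cells it fell by 0.90 ± 0.08 at 72 h (adjusted p = 8.50e-06), regained 0.38 ± 0.08 between 72 and 144 h (adjusted p = 0.00426), and ended 0.51 lower than at 0 h (adjusted p = 2.57e-04). These falls were called under every alternative tried.

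Mitf, the melanocyte and osteoclast family member, was the lowest of the 3, and it rose at 72 h in KH cells alone among the called comparisons with 0 h. Mitf (ENSMUSG00000035158.15, chromosome 6, 97807052 to 98021349) stood in KH cells at 3.60 and 4.46 TPM at 0 h, 6.29 and 6.56 TPM at 72 h, and 3.21 and 3.53 TPM at 144 h. Both 72 h libraries were above all other KH libraries. It rose by 0.57 ± 0.14 at 72 h (limma, adjusted p = 0.00743) and fell by 0.77 from 72 to 144 h (adjusted p = 0.00347). Without KH 0 h replicate 1 the rise was 0.44 (adjusted p = 0.0610). In DNMT3ABKO cells the libraries had 3.93 and 4.85 TPM at 0 h, 4.88 and 4.97 TPM at 72 h, and 3.88 and 5.14 TPM at 144 h. Those of 144 h overlapped the other times, both of 72 h lay just above those of 0 h, and the differences from 0 h, 0.14 and 0.03, were not called (adjusted p = 0.403 and 0.877). The line difference in the 72 h response of Mitf was -0.42 (adjusted p = 0.290), so the lines were not shown to differ. The fourth family gene, Tfec, was at most 0.574 TPM in any library and was not tested.

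Within the summed TPM of the family, Tfe3 held 71.8% in KH cells at 0 h, 78.0% at 72 h and 81.8% at 144 h, while the share of Tfeb went from 23.0% to 15.0% and 14.5%. In DNMT3ABKO cells the Tfe3 share went from 60.1% to 77.7% and 71.7%, and that of Tfeb from 34.3% to 16.7% and 23.1%. At 0 and 144 h the Tfe3 share was higher in both KH libraries than in both DNMT3ABKO libraries, and at 72 h the libraries of the lines overlapped. Such shares do not depend on how the libraries are scaled, but a share of 1 gene falls as another rises, so they repeat the changes above on a scale within the family.

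**Figure D2:**
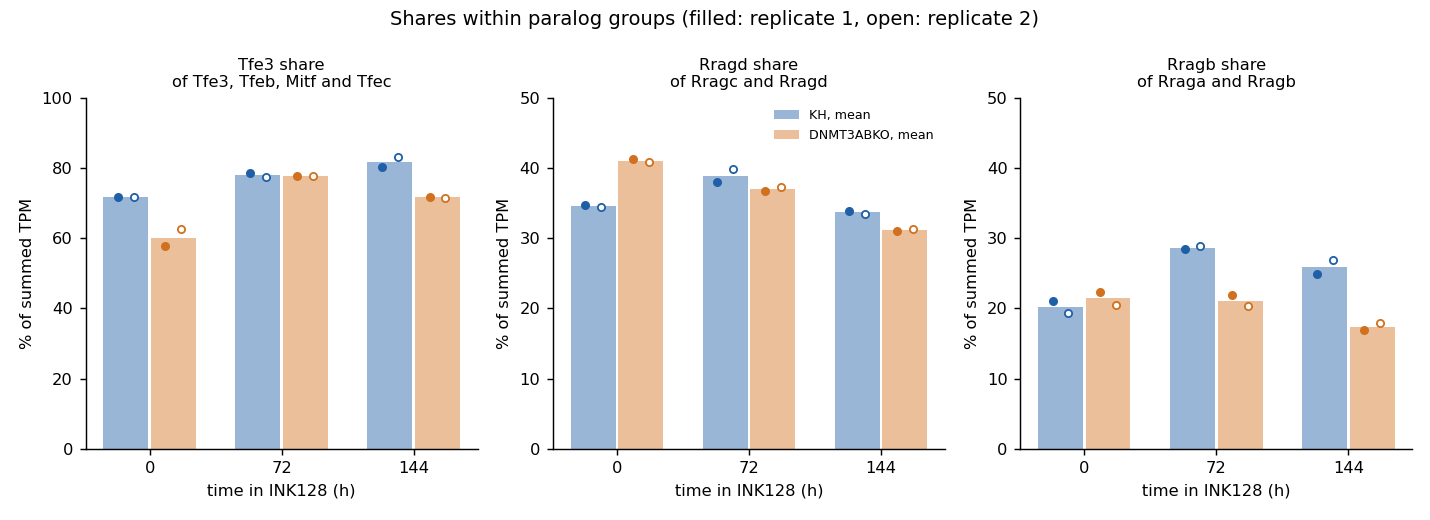
Share of summed TPM (y axis, percent) held by Tfe3 within its family, by Rragd of Rragc and Rragd, and by Rragb of Rraga and Rragb, by time in INK128 (x axis, hours). Bars are means of 2 libraries and points are the libraries (filled, replicate 1; open, replicate 2), with KH in blue and DNMT3ABKO in orange; the Tfe3 share was 81.8% in KH and 71.7% in DNMT3ABKO cells at 144 h and the Rragb share was 25.9% in KH and 17.4% in DNMT3ABKO cells at that time.

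The 3 genes of the folliculin complex were all higher at 144 h than at 0 h in both lines. The ES cell markers had medians of 0.53 (KH) and 0.69 (DNMT3ABKO) in these comparisons, and the part of a changing share of ES cells was not tested. Flcn (ENSMUSG00000032633.12, chromosome 11, 59791408 to 59810016, minus strand) encodes folliculin, which acts on RagC and RagD. Its level in KH cells was 25.7 and 27.7 TPM at 0 h, 32.6 and 31.1 TPM at 72 h, and 43.6 and 41.2 TPM at 144 h. DNMT3ABKO libraries held 24.3 and 23.8, 25.7 and 25.4, and 36.8 and 36.0 TPM. In both lines every 144 h library was above every earlier library of its line. Flcn rose by 0.65 ± 0.07 in KH cells at 144 h (limma, adjusted p = 3.41e-05) and by 0.58 ± 0.07 in DNMT3ABKO cells (adjusted p = 5.15e-05), and from 72 to 144 h alone by 0.40 and 0.49 (adjusted p = 0.00234 and 4.67e-04). The rise at 72 h was 0.25 in KH cells (adjusted p = 0.0130) and the value in DNMT3ABKO cells was 0.08 (adjusted p = 0.322). The KH call at 72 h was lost with median-ratio scaling (0.15, adjusted p = 0.0962), without KH 0 h replicate 1 (0.19, adjusted p = 0.0841) and without KH 72 h replicate 1 (0.22, adjusted p = 0.0933).

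Fnip1, whose product joins folliculin, rose at both times in both lines. Fnip1 (ENSMUSG00000035992.15, chromosome 11, 54438199 to 54518235) stood at 15.7 and 17.0 TPM in KH cells at 0 h, 20.99 and 22.3 TPM at 72 h, and 27.4 and 25.9 TPM at 144 h. The DNMT3ABKO libraries had 12.2 and 15.5, 21.4 and 20.5, and 28.2 and 30.9 TPM. The 3 times did not overlap in either line. At 144 h it rose by 0.68 ± 0.11 in KH (limma, adjusted p = 5.08e-04) and by 1.05 ± 0.11 in DNMT3ABKO cells (adjusted p = 1.92e-05), the largest rise among the members in any comparison with 0 h, and by 0.89 without DNMT3ABKO 0 h replicate 1 (adjusted p = 2.33e-05). At 72 h the rises were 0.39 in KH cells (adjusted p = 0.0138) and 0.57 in DNMT3ABKO cells (adjusted p = 0.00132), the latter 0.41 without DNMT3ABKO 0 h replicate 1 (adjusted p = 0.00363). The KH call at 72 h was lost without KH 0 h replicate 1 (0.33, adjusted p = 0.0830) and without KH 72 h replicate 2 (0.34, adjusted p = 0.0873). From 72 to 144 h Fnip1 rose by 0.48 in DNMT3ABKO cells (adjusted p = 0.00810), a call lost without DNMT3ABKO 72 h replicate 2 (0.45, adjusted p = 0.0581) or 144 h replicate 2 (0.42, adjusted p = 0.0693). The line difference in the 144 h response was 0.37 and was not called (adjusted p = 0.173), although it was called with median-ratio scaling (adjusted p = 0.0389) and without DNMT3ABKO 0 h replicate 2 (0.54, adjusted p = 0.0107).

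Fnip2 (ENSMUSG00000061175.11, chromosome 3, 79455974 to 79567796, minus strand), another partner of folliculin, rose at 144 h in both lines. Its libraries were 20.2 and 23.5, 25.1 and 24.5, and 32.3 and 28.2 TPM in KH cells and 16.7 and 20.8, 25.0 and 23.3, and 26.1 and 28.9 TPM in DNMT3ABKO cells. Both 144 h libraries were above both 0 h libraries in each line. Fnip2 rose by 0.45 ± 0.12 in KH cells (limma, adjusted p = 0.00933) and by 0.54 ± 0.12 in DNMT3ABKO cells (adjusted p = 0.00307) at 144 h, the latter 0.39 without DNMT3ABKO 0 h replicate 1 (adjusted p = 0.0160). The KH call was lost without KH 0 h replicate 1 (0.35, adjusted p = 0.0748) and without KH 144 h replicate 1 (0.36, adjusted p = 0.0793). The DNMT3ABKO value at 72 h was 0.36 (adjusted p = 0.0268). That call was lost without DNMT3ABKO 0 h replicate 1 (0.20) and without either 72 h replicate (0.31 and 0.41). It was also lost without the filter on low values and with the compared groups alone. Fnip1 made up 42.8% of the 2 partners in KH and 42.5% in DNMT3ABKO cells at 0 h, and 46.9% and 51.8% at 144 h.

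The Rag genes among the members changed by 0.45 at most between times. The line differences in response were not called for Rraga (0.13 and 0.22 at 72 and 144 h, limma, adjusted p = 0.675 and 0.372) or Rragc (-0.02 and 0.10, adjusted p = 0.961 and 0.755), so the lines were not shown to differ. Rraga (ENSMUSG00000070934.6, chromosome 4, 86575668 to 86577285) encodes RagA, which pairs with RagC or RagD. Its KH libraries ran from 54.6 to 65.2 TPM over the 3 times, with group means of 58.5, 64.1 and 63.0 TPM. In DNMT3ABKO cells the libraries were 44.8 and 54.4, 60.5 and 58.5, and 61.7 and 62.8 TPM. All treated DNMT3ABKO libraries were above both at 0 h. The DNMT3ABKO differences from 0 h were 0.26 at 72 h (limma, adjusted p = 0.0359) and 0.33 at 144 h (adjusted p = 0.0130). Without DNMT3ABKO 0 h replicate 1 they were 0.13 (adjusted p = 0.207) and 0.19 (adjusted p = 0.0666), and without replicate 2 the first was 0.40 (adjusted p = 0.00169). The 72 h call was also lost without either 72 h replicate and without the filter on low values. The 144 h call was lost without 144 h replicate 2, and both calls when only the compared groups were fitted (adjusted p = 0.154 and 0.0881).

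Rragc and Rragd are partners of the folliculin complex in the step that sets TFE3 and TFEB phosphorylation. Rragc (ENSMUSG00000028646.16, chromosome 4, 123917446 to 123936997) was 38.2 and 41.9, 37.4 and 35.3, and 46.8 and 45.2 TPM in KH cells and 31.6 and 40.9, 33.5 and 30.9, and 44.2 and 44.5 TPM in DNMT3ABKO cells. Both 144 h libraries were the highest in each line. Rragc was called at 144 h against 0 h in DNMT3ABKO cells (0.30 ± 0.11, limma, adjusted p = 0.0398), though not without their 0 h replicate 1 (0.11, adjusted p = 0.258), nor without either 144 h replicate (0.30 and 0.29, adjusted p = 0.113 and 0.129), and without 0 h replicate 2 it was 0.48 (adjusted p = 6.12e-04). With the replicate block the call was lost (adjusted p = 0.0589), and also without the filter on low values and with the compared groups alone. From 72 to 144 h it rose by 0.45 in DNMT3ABKO cells (adjusted p = 0.0119), a call lost without DNMT3ABKO 72 h replicate 2 (0.39, adjusted p = 0.0876) and without either 144 h replicate (adjusted p = 0.06003 and 0.0637). The KH value from 72 to 144 h was 0.33 (adjusted p = 0.0535), and it was called with median-ratio scaling, with protein-coding scaling and with the compared groups alone (adjusted p = 0.00283, 0.00773 and 0.00931). At 72 h against 0 h Rragc was at -0.13 in KH and -0.16 in DNMT3ABKO cells, not called, and with median-ratio scaling it was called lower in both (-0.23 and -0.28, adjusted p = 0.0180 and 0.00628). Of the 31-base words in Rragc transcripts, 7.92% also occur in other genes, mostly in 4930535I16Rik on the opposite strand, which is at most 0.184 TPM, and the pseudogene Gm12902 inside Rragc is listed at 1.27 to 3.29 TPM.

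Rragd (ENSMUSG00000028278.14, chromosome 4, 32983037 to 33022180) was 20.3 and 22.0, 22.9 and 23.4, and 24.0 and 22.8 TPM in KH cells, so that the treated libraries were above those at 0 h. In DNMT3ABKO cells it was 22.2 and 28.3, 19.4 and 18.4, and 19.8 and 20.2 TPM, and the treated libraries were below those at 0 h. Only the DNMT3ABKO differences were called, where Rragd fell by 0.39 ± 0.10 at 72 h (limma, adjusted p = 0.00962) and fell by 0.31 ± 0.10 at 144 h (adjusted p = 0.0266). Without DNMT3ABKO 0 h replicate 2 they were -0.22 (adjusted p = 0.0354) and -0.14 (adjusted p = 0.146), and without replicate 1 they were -0.55 and -0.48 (adjusted p = 3.20e-04 and 6.70e-04). The 72 h call was also lost without 72 h replicate 2 (-0.35). The 144 h call was lost without either 144 h replicate (-0.30 and -0.32) and without the filter on low values. Both calls were lost with the compared groups alone. The line differences in response were -0.51 at 72 h and -0.45 at 144 h (adjusted p = 0.0809 and 0.0928), and both were called with median-ratio scaling (adjusted p = 0.00724 and 0.00989) and without DNMT3ABKO 0 h replicate 1 (-0.68 and -0.62, adjusted p = 0.00550 and 0.00456). Within the sum of Rragc and Rragd, Rragd was 34.6%, 38.9% and 33.7% in KH and 41.1%, 37.1% and 31.1% in DNMT3ABKO cells at the 3 times. Both DNMT3ABKO libraries at 144 h had a lower share than both at 0 h, while in KH cells the share was highest at 72 h.

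**Figure D3:**
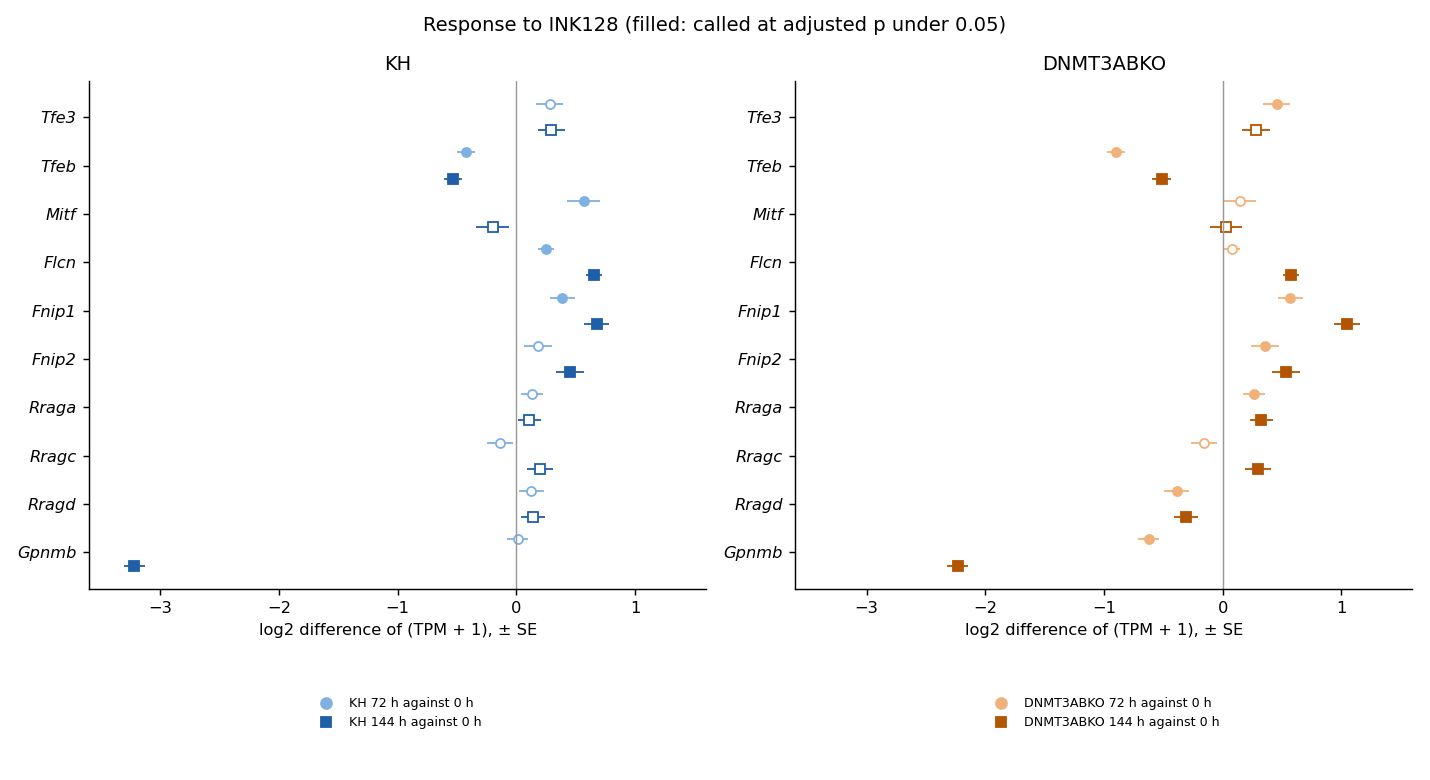
Log2 difference of (TPM + 1) from 0 h (x axis, ± SE) for each member at 72 h (circles) and 144 h (squares) in KH (left) and DNMT3ABKO cells (right), with filled symbols for called values. Flcn, Fnip1 and Fnip2 rose at 144 h in both lines, by 0.45 to 1.05, while Tfeb fell by 0.43 to 0.90.

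Gpnmb, a lysosomal and membrane glycoprotein gene activated by the TFE3 family and abundant in macrophages, showed the largest fall of the 10 at 144 h in both lines. Gpnmb (ENSMUSG00000029816.10, chromosome 6, 49036546 to 49070929) was 18.02 and 19.7 TPM in KH cells at 0 h, 19.0 and 19.0 TPM at 72 h, and 1.13 and 1.13 TPM at 144 h. DNMT3ABKO libraries held 14.9 and 16.8, 9.72 and 10.1, and 2.58 and 2.58 TPM. The KH libraries of 0 and 72 h overlapped, and in DNMT3ABKO cells no times did. Gpnmb fell by 3.22 ± 0.09 in KH cells at 144 h (limma, adjusted p = 6.68e-09), and it fell by 2.23 ± 0.09 in DNMT3ABKO cells (adjusted p = 2.25e-08). At 72 h it fell by 0.62 in DNMT3ABKO cells (adjusted p = 2.23e-04), while the value in KH cells was 0.01 (adjusted p = 0.932).

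Most macrophage markers were, like Gpnmb, lower at 144 h than at 0 h. The sum of 18 such genes was 369 and 404 TPM in KH cells at 0 h, 282 and 274 TPM at 72 h, and 42.8 and 41.4 TPM at 144 h, and it was 316 and 350, 183 and 186, and 63.6 and 60.3 TPM in DNMT3ABKO cells. At 144 h C1qb and Aif1 were listed at 0 in both KH libraries, and Aif1 in both DNMT3ABKO libraries. Others kept more of their 0 h level. Highest of the 18 at 144 h was Cd68, at 63.7% in KH and 95.9% in DNMT3ABKO cells. At 72 h it was Laptm5, at 146% and 133%. Of 17 markers tested, 10 were called lower and 2 higher, Cd14 and Laptm5, at 72 h in KH cells (19.5% and 28.3% of all genes). At 144 h 17 were lower in KH cells (23.9%). In DNMT3ABKO cells 12 were lower and 1 higher, Laptm5, at 72 h (21.6% and 34.3%), and 16 were lower at 144 h (26.2%), all but Cd68. Gpnmb was at 101% and 5.99% of its 0 h level in KH cells at 72 and 144 h, where the marker sum was at 71.9% and 10.9%. The corresponding DNMT3ABKO values were 62.6% and 16.3% for Gpnmb, and 55.5% and 18.6% for the sum. In KH cells at 72 h Gpnmb was thus higher against its start than the marker sum, and the part of these cells in its fall was not tested. Of 12 osteoclast and melanocyte markers 4 could be tested, Acp5, Ctsk, Pmel and Mlana. All 4 were called lower at 72 h in both lines (19.5% and 21.6% of all genes lower in KH and DNMT3ABKO cells). At 144 h 3 were lower and 1 higher in KH (23.9% and 27.4% of all genes) and 3 lower in DNMT3ABKO cells (26.2%). Mlana was 0.967 and 1.31 TPM in KH cells at 0 h and lower once treated, so its KH calls lie near the floor. It reached the filter through DNMT3ABKO cells, at 4.77 and 4.35 TPM at 0 h. Ctsk, an osteoclast protease gene, was 10.1 and 11.5 TPM in KH cells at 0 h, 2.66 and 1.79 TPM at 72 h, and 1.11 and 0.993 TPM at 144 h. Acp5, the other osteoclast gene tested, was the 1 called higher, from 3.74 and 4.25 TPM to 5.02 and 4.87 TPM in KH cells at 144 h. In DNMT3ABKO cells Acp5 was 5.32 and 5.46 TPM at 0 h and 6.19 and 6.39 TPM at 144 h, not called. The part of such cells in the values of Gpnmb and Mitf was not tested.

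**Figure D4:**
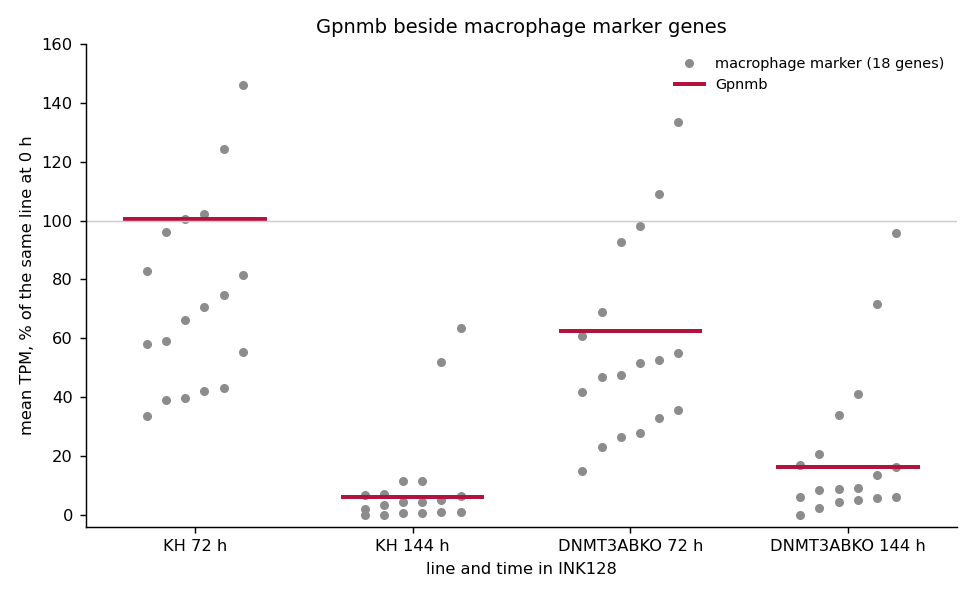
Mean TPM as a percentage of the same line at 0 h (y axis) for Gpnmb (red lines) and 18 macrophage marker genes (grey points, 1 per gene, spread sideways for clarity) in the 4 treated groups (x axis). At 144 h Gpnmb was at 5.99% in KH and 16.3% in DNMT3ABKO cells, and the median marker was at 4.46% and 8.97%.

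The lines were then compared at each time. At 0 h, 1 member was called, Tfeb, where 4.92% of all genes were called higher and 4.14% lower (9.06% in all). It was 0.52 ± 0.08 higher in DNMT3ABKO cells (limma, adjusted p = 0.00224), a call lost when only those groups were fitted (adjusted p = 0.146). At 72 h, 2 members were called lower (9.26% of all genes higher, 1573 of the 15727 lower and 19.3% in all), Flcn by -0.31 (adjusted p = 0.0111) and Gpnmb by -0.88 (adjusted p = 8.46e-05), while Tfeb no longer differed beyond its spread (0.05, adjusted p = 0.720). At 144 h, 2 were called higher and 1 lower (1727 of the 15727 genes higher, 15.5% lower and 26.5% in all), or 2 higher and 3 lower with protein-coding scaling. Tfeb was 0.54 higher in DNMT3ABKO cells (adjusted p = 6.87e-04), Gpnmb 0.75 higher (adjusted p = 1.96e-04; 1.12 with a pseudocount of 0.1 TPM), and Flcn was lower, by -0.22 (adjusted p = 0.0403). The Flcn calls between lines were weak: at 72 h the call was lost without KH replicate 1 and without either DNMT3ABKO replicate (adjusted p = 0.0993, 0.0637 and 0.0767), and at 144 h without any 1 of the 4 libraries (adjusted p = 0.0850 to 0.224), with median-ratio scaling (-0.17) and with the replicate block (adjusted p = 0.0864).

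The question whether the response itself differed between lines was put with the difference of the 2 responses. At 72 h, 2 members differed, Tfeb and Gpnmb, both lower (3.38% of all genes called higher and 1.86% lower, 5.23% in all), and at 144 h Gpnmb did (4.89% and 3.70%, 8.59% in all). The 72 h response of Tfeb was lower in DNMT3ABKO cells, by -0.47 ± 0.11 (limma, adjusted p = 0.0349). This call was lost when any 1 library of the 72 h groups or of KH at 0 h was left out (adjusted p = 0.0512 to 0.151), when only those groups were fitted (adjusted p = 0.102), and with the replicate block (adjusted p = 0.0920), which left 545 genes called in this comparison in place of 823. For Gpnmb the difference was -0.63 ± 0.12 at 72 h (adjusted p = 0.0171) and 0.99 ± 0.12 at 144 h (adjusted p = 6.83e-04), so that its fall at 144 h was smaller in DNMT3ABKO cells. The 72 h call was lost when KH 0 h replicate 1 or any 72 h library was left out, and with the compared groups alone. Its value ran from -0.72 to -0.55 over the libraries left out in turn. The 144 h value was called under every alternative. Of the macrophage markers, 2 of 17 were called lower at 72 h and 7 higher at 144 h in the same comparisons, and their part in the Gpnmb result was not tested. The members called at 144 h became 2 higher and 1 lower with median-ratio scaling, and 1 higher and 1 lower with protein-coding scaling.

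**Figure D5:**
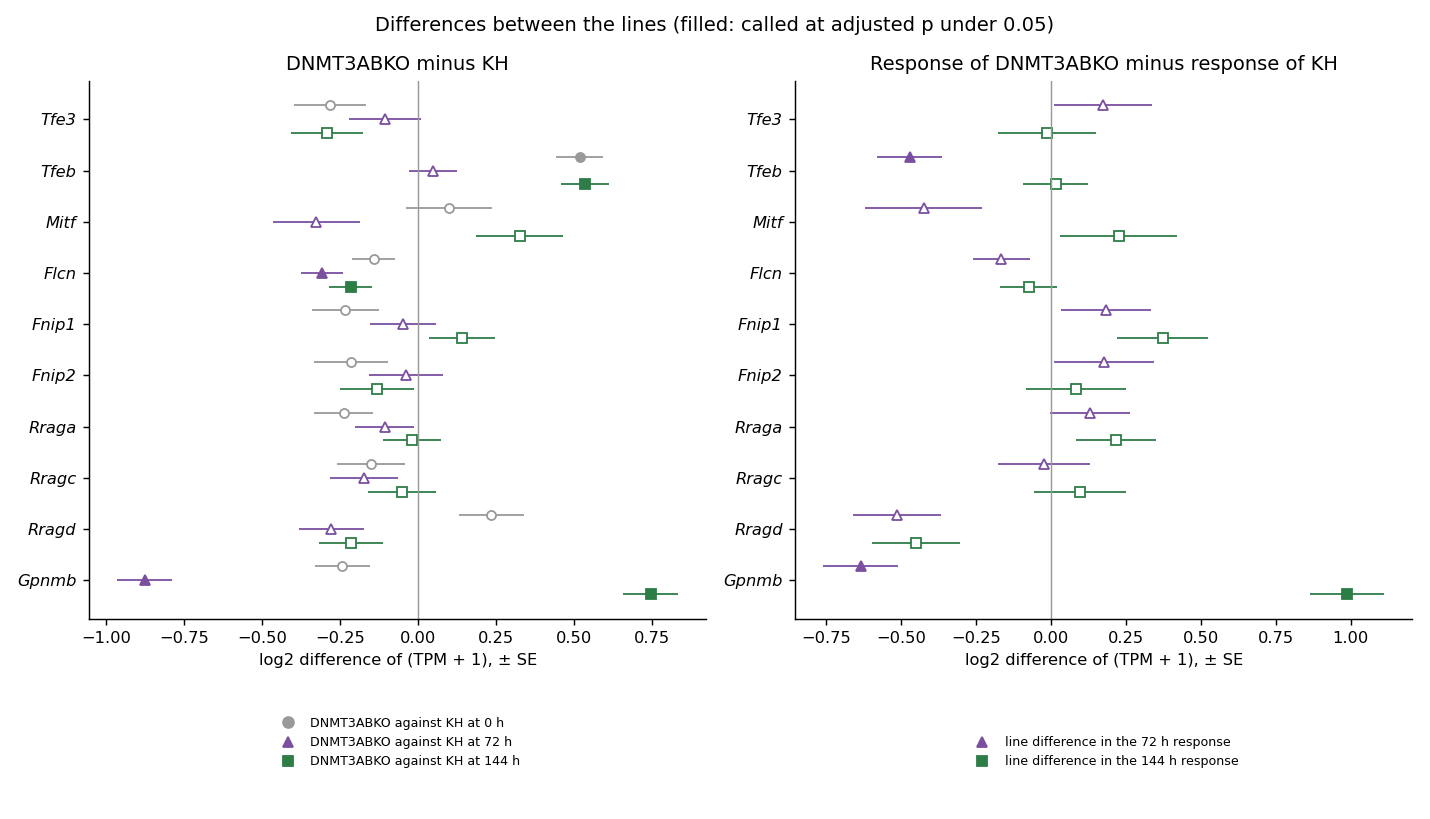
Log2 difference of (TPM + 1) between DNMT3ABKO and KH cells (left; grey circles 0 h, purple triangles 72 h, green squares 144 h) and of their responses (right) for each member, ± SE, with filled symbols for called values. Gpnmb was at -0.88 at 72 h and 0.75 at 144 h on the left, and Tfeb at 0.52, 0.05 and 0.54.

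Genes around the Rag step, 24 in all, encode Ragulator, GATOR and KICSTOR subunits and amino acid sensors. In KH cells 7 were called higher and 7 lower at 72 h, and 7 higher and 8 lower at 144 h, with medians of 0.12 and -0.02 against 0.08 and 0.05 over all genes. Among DNMT3ABKO samples 10 were higher and 7 lower at 72 h, and 9 higher and 8 lower at 144 h (medians 0.21 and 0.03 against 0.12 and 0.05). Of all genes, 28.3% were called higher and 19.5% lower in KH cells at 72 h, and 27.4% and 23.9% at 144 h. The DNMT3ABKO shares were 34.3% and 21.6% at 72 h, and 31.4% and 26.2% at 144 h. The list was not tested as a set, so its counts are not read as a result. The arginine sensor gene Castor1 had the lowest value of the list in KH cells at 144 h, where it fell by 1.66 ± 0.08, from 39.7 to 11.9 TPM, and it fell by 2.16 ± 0.08 in DNMT3ABKO cells, from 53.2 to 11.1 TPM (limma, adjusted p = 1.80e-07 and 1.68e-08). Lamtor4, a Ragulator subunit gene, fell by 0.94 in both lines (adjusted p = 1.44e-04 and 1.06e-04). The Castor1 homologue Castor2 fell by 0.77 (KH, adjusted p = 9.10e-04) and fell by 0.34 (DNMT3ABKO, adjusted p = 0.0490). Among the highest were Itfg2, a KICSTOR subunit gene (0.64 in KH at 144 h, adjusted p = 2.86e-04), and Rragb. Rragb, which encodes the RagA paralog RagB, rose by 0.54 ± 0.09 in KH cells at 144 h (adjusted p = 6.72e-04), from 14.8 to 22.1 TPM, but stood at -0.04 in DNMT3ABKO cells (adjusted p = 0.743), from 13.5 to 13.1 TPM. This line difference was -0.58 ± 0.13 (adjusted p = 0.0197). Of the sum with Rraga, Rragb made up 20.2%, 28.6% and 25.9% at the times in KH cells, against 21.5%, 21.1% and 17.4% in DNMT3ABKO cells.

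Of 22 genes that act on the TFE3 family, such as mTORC1 subunits, calcineurin and 14-3-3 proteins, 21 were tested. In KH cells 4 were called higher and 3 lower at 72 h, and 6 higher and 4 lower at 144 h. In DNMT3ABKO cells 9 were higher and 4 lower at 72 h, and 9 higher and 3 lower at 144 h, against the shares of all genes given above (27.4% higher and 23.9% lower in KH, 31.4% and 26.2% in DNMT3ABKO cells at 144 h). The medians at 144 h were 0.00 in KH and 0.22 in DNMT3ABKO cells, and 0.05 over all genes in both. With median-ratio scaling the counts at 72 h were 4 higher and 7 lower in KH and 8 higher and 7 lower in DNMT3ABKO cells, and at 144 h 7 higher and 7 lower, and 11 higher and 5 lower. At 144 h the lowest in KH cells was Akt1, a kinase of the growth factor pathway, which fell by 1.04 ± 0.09 (limma, adjusted p = 9.54e-06) and fell by 1.23 in DNMT3ABKO cells (adjusted p = 1.72e-06). The 14-3-3 gene Ywhab stood at -0.55 and -0.51 (adjusted p = 0.00106 and 0.00136), and the calcineurin subunit gene Ppp3r1 fell by 0.33 in KH cells (adjusted p = 0.0230) and stood at -0.16 in DNMT3ABKO cells (adjusted p = 0.208). Mcoln1, the lysosomal calcium channel gene, rose by 0.71 ± 0.08 in KH and 1.09 ± 0.08 in DNMT3ABKO cells (adjusted p = 6.60e-05 and 2.22e-06). Mtor itself rose by 0.67 and 0.86 (adjusted p = 1.14e-04 and 1.38e-05), and Tsc2, which restrains mTORC1, by 0.65 and 0.56 (adjusted p = 4.75e-05 and 8.87e-05).

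The third list was 34 lysosomal and autophagy genes known as targets of TFEB, of which 32 were tested and Mcoln1 is shared with the list before. They were called in both directions. In KH cells 9 were higher and 7 lower at 72 h, and 9 higher and 11 lower at 144 h, and in DNMT3ABKO cells 12 were higher and 9 lower at 72 h, and 14 higher and 7 lower at 144 h. With median-ratio scaling the KH counts at 72 h were 7 higher and 10 lower, where 3930 and 4321 of all 15727 genes were. In KH cells at 144 h the protease gene Ctsf rose by 1.41 ± 0.09 (limma, adjusted p = 1.35e-06), from 7.66 to 22.0 TPM. The protease gene Ctsb fell by 1.64 ± 0.09 (adjusted p = 2.97e-07), Ctsd, another, fell by 0.78 ± 0.08 (adjusted p = 2.29e-05), and the sulfatase gene Sgsh fell by 0.76 (adjusted p = 5.81e-04). In DNMT3ABKO cells these genes stood at 1.57 for Ctsf, -1.65 for Ctsb, -0.43 for Ctsd and -0.99 for Sgsh, all called. In the same comparison the fibroblast marker sum went from 3368 to 691 TPM and the macrophage sum from 386 to 42.1 TPM, and their part in these falls was not tested. The line difference in the 144 h response was called for 5 genes, all higher in DNMT3ABKO cells, among them Atp6v1c1 (0.52), Lamp1 (0.57), Sqstm1 (0.55) and Tpp1 (0.52), which are named with their values in view. Of all genes 4.89% were called higher. With median-ratio scaling 11 of the list were, and 1174 of all 15727 genes. The list had a median of 0.20 against 0.01 over all genes. Of 17 macrophage markers 7 were called higher in the same comparison, and 9 between the lines at 144 h, and their part was not tested. Between the lines at 144 h, 7 of the target list were higher and 3 lower in DNMT3ABKO cells, where 1727 of the 15727 genes were higher and 15.5% lower. With median-ratio scaling 14 and 3 of the list were, and 2575 and 2465 of all genes.

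Lastly, the genes whose log2 levels followed a member most closely over the 12 libraries were named among 12565 protein-coding genes, as a description, since libraries of a group share their treatment and both lines share their times. For Tfe3 they were Tapt1, Appl1 and Nfx1 (Pearson r of 0.992, 0.978 and 0.977), for Tfeb they were Khdc3, Map4 and Oas1g (0.955, 0.953 and 0.946), and for Flcn they were B3gnt2, Mis18a and Hist1h3d (0.974, 0.969 and 0.968). Mitf and Rragd had few close followers. No gene passed 0.9 for Mitf, led by Zfyve1 at 0.892, then Trim25 and Atp13a2, and for Rragd 1 did, Dock1 at 0.961, followed by Tesk2 and Maged1. For Gpnmb the nearest were Lilr4b, Ctss and Cd14 (0.993, 0.990 and 0.989), of which Ctss and Cd14 are in the macrophage marker list.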

How the data were processed

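Total RNA of 2 mouse ES cell lines at 3 times was sequenced, with 2 replicates each and 12 libraries in all. The authors depleted ribosomal RNA, added spike-in RNA, trimmed reads with cutadapt 2.4, aligned them to mm10 with STAR (2.7.3a in the submitters' processing notes) and quantified genes with StringTie (2.0 in the same notes). The deposited values are TPM per gene and library; no spike-in row was listed, and TPM retains no read depth, so the precision of a single value is unknown and rests on the 2 replicates. Rows that repeated an identifier were summed. Groups were taken from the titles. Values were analysed as log2(TPM + 1) with limma 3.58.1 in R 4.3.3 (lmFit and eBayes with a trend, 1 coefficient per group) on the 15727 genes whose mean over the libraries reached 1 TPM, in 11 contrasts, checked on simulated data. Adjusted p-values are Benjamini-Hochberg values over all genes of a contrast. The study's count-based test was not used, since TPM are not counts. Python 3.11.15, pandas 2.3.3, NumPy 2.4.6 and matplotlib 3.10.9 were used for the rest.

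The members, gene lists and tests were chosen with earlier results of these data known. All 10 members are named; of each pathway list, the 3 highest and 3 lowest called genes in KH cells at 144 h against 0 h, of which some are not reported here; and for 6 members the 3 genes with the highest Pearson r. Esrrb, Pou5f1, Nanog, Utf1, C1qb, Aif1, Cd68, Laptm5, Cd14, Acp5, Ctsk, Pmel and Mlana are named from the marker lists. The fits were repeated without the filter (37364 genes), with a pseudocount of 0.1 TPM, with median-ratio scaling, on the compared groups alone, with a replicate block, without each library in turn and, chosen after seeing the data, scaling to protein-coding genes. The study states that the time points of a biological replicate were handled together, and the numbers in the labels were taken to mark these replicates, so the block lies within each line. Same-numbered libraries of a line deviated from their group means with r of -0.104 to 0.0996, and those of different lines with r of -0.0641 to 0.336. Promoter sequences and starts are from RefSeq.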

Additional observations from a re-analysis of the deposited data

Results flagged for a closer look

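These results stood out because the 2 lines differed in the same contrast by the test of the difference itself (limma). Gpnmb fell in DNMT3ABKO cells at 72 h while the KH value was 0.01 and was not called, with a difference in response of -0.63 on the log2 scale (adjusted p = 0.0171). At 144 h it fell in both lines, less far in DNMT3ABKO cells, with a difference of 0.99 (adjusted p = 6.83e-04). The macrophage marker sum was at 71.9% and 55.5% of its 0 h level at 72 h in KH and DNMT3ABKO cells, and at 10.9% and 18.6% at 144 h, and its part in these differences was not tested. Tfeb fell further in DNMT3ABKO cells at 72 h, with a difference of -0.47 (adjusted p = 0.0349), from a 0 h level of 28.9 TPM against 19.9 TPM in KH cells.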

How the results depend on the processing

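No called value of a member changed direction under any alternative. Of the 41 calls, none was lost with a pseudocount of 0.1 TPM or with scaling to protein-coding genes, 2 with median-ratio scaling, 4 without a filter and 10 with the compared groups alone. Calls were also gained, 14 with scaling to protein-coding genes, 15 with median-ratio scaling and 10 with the compared groups alone. The causes were not tested. Members called became 6 for KH 144 h against 72 h with median-ratio scaling, with protein-coding scaling and with the compared groups alone (3 as reported). With only those groups they became 3 and 5 for DNMT3ABKO cells at 72 and 144 h against 0 h (7 and 8 as reported), 0, 4 and 5 between the lines at 0, 72 and 144 h (1, 2 and 3), and 0 for the line difference at 72 h (2). Both scalings gave 2 between the lines at 0 h, protein-coding scaling gave 5 at 144 h, and for the line difference at 144 h median-ratio scaling gave 3 and protein-coding scaling 2 (1 as reported). Over all genes, calls between the lines at 0 and 72 h became 303 and 5143 with the compared groups alone (1425 and 3029 as reported). For the line difference at 72 h they became 1344, 1392 and 437 with median-ratio scaling, protein-coding scaling and only those groups (823), and at 144 h 2169, 2279 and 757, and 2099 without a filter (1351).

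Leaving out each library in turn gave 1 to 4 members for KH 72 h against 0 h, 4 to 7 and 5 to 8 for DNMT3ABKO at 72 and 144 h, 3 to 5 for DNMT3ABKO 144 h against 72 h, 1 to 7 and 1 to 2 between the lines at 0 and 72 h, and 0 to 3 and 1 to 3 for the line differences at 72 and 144 h. Genes called ran from 1762 to 2061 for KH 144 h against 72 h, 2600 to 2795 for DNMT3ABKO 144 h against 72 h, 720 to 5039, 1439 to 1538 and 2362 to 2486 between the lines at 0, 72 and 144 h, and 365 to 2799 and 785 to 3599 for the line differences at 72 and 144 h. The highest of the counts at 0 h and of both line differences, 5039, 2799 and 3599 genes, and the 7 members at 0 h came without DNMT3ABKO 0 h replicate 2. The 1 member for KH 72 h came without KH 0 h replicate 1, and the 4 and 5 for DNMT3ABKO at 72 and 144 h without replicate 2 of those times. The ranges of genes for 144 h against 72 h and between the lines at 72 and 144 h hold whichever of the compared libraries was left out.

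With the replicate block 3 of the 41 calls were lost (Rragc in DNMT3ABKO cells at 144 h, Flcn between the lines at 144 h and Tfeb in the line difference at 72 h) and 3 gained (Tfe3), and it changed no other call of a member. For the line difference at 72 h it left 545 genes and 1 member called. With 2 libraries a group and unknown depth, small changes such as those of the Rag genes are at the limit of what these data resolve.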
